A study of Mus musculus with 2 samples.

Results

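miR-122 and miR-802 are a pair of liver microRNAs, each read from its own gene as 2 mature strands, the 5p and the 3p arm. The levels of mmu-miR-122-5p, mmu-miR-122-3p, mmu-miR-802-5p and mmu-miR-802-3p were taken by these exact names from small RNA libraries of mouse liver. All 4 names were found in both deposited tables, among 484 microRNAs in experiment 1 and 1915 in experiment 2. The livers came from wild-type female C57BL/6 mice of 8 to 10 weeks, kept for 5 days on a control Lieber-DeCarli liquid diet. The ethanol-fed mice then received this diet with 5% (v/v) ethanol for 10 days and a gavage of 6 g/kg ethanol on day 16. The pair-fed mice had the isocaloric control diet and a gavage of dextrin-maltose, and all livers were collected 9 h after the gavage. The design statement deposited with the data speaks of 16 days of ethanol, whereas the protocol gives 10. Each table holds 1 pair-fed and 1 ethanol-fed library, 4 in all, whereas the labels list only 1 sample per condition. The study describes the sequencing as repeated in independent experiments, but which columns belong to the listed samples and which animals or pools stand behind a library are not given in the sources used here. No spread between animals could be computed, and every comparison below is between libraries.

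A microRNA gene is transcribed into a hairpin RNA, which is cut in the nucleus and again in the cytoplasm to leave a short duplex of the 5p and 3p arms. An Argonaute protein keeps mainly 1 arm of the duplex as a guide to complementary messenger RNAs, and the other arm is largely lost. miR-122 is made almost exclusively in hepatocytes, where its 5p arm is the guide. It is known for restraining genes that are not used in mature hepatocytes and for its bearing on cholesterol and fatty acid metabolism. miR-802 is found in liver and a few other epithelial organs and is known to rise in the liver of obese mice.

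The RefSeq sequences were matched by name for 2 of the 4 microRNAs, both from Mir802, and are shown because the balance of these arms differs between the tables. The capitals mark the seed, bases 2 to 8 from the 5′ end, with which a guide first pairs with its targets.
mmu-miR-802-5p: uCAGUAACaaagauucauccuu
mmu-miR-802-3p: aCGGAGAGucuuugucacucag
Both arms are 22 nt long, and the G and C content was 31.8% for the 5p arm and 50% for the 3p arm. In GRCm38.p6 the 5p arm lies at chr16:93369737-93369758 and the 3p arm at chr16:93369775-93369796, both on the plus strand, with 16 bases of hairpin loop between them. None of the other names among the 1679 mature microRNAs in that RefSeq table has the seed of either arm. The seeds of the 2 arms also differ from each other.

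The Mir802 hairpin is 97 nt long (chromosome 16, 93369720 to 93369816, GRCm38) and lies outside other annotated genes in GENCODE vM21. The nearest gene before it is the long noncoding RNA gene 1810044K17Rik of the same strand, 690 bp away, and the nearest after it is 1700029J03Rik, a long noncoding RNA gene of the minus strand, 21860 bp away. Mir122 is 66 nt long (chromosome 18, 65248861 to 65248926, plus strand) and lies within exon 2 of the long noncoding RNA gene AC157910.3, which spans 65244287 to 65252621 on the same strand. No other annotated microRNA gene was closer than 970338 bp to Mir122 or 296898 bp to Mir802.

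For experiment 1 the table lists reads on each mature microRNA, with totals of 4170601 (pair-fed) and 4311802 (ethanol-fed). For experiment 2 it lists reads on each microRNA scaled to 1000000 reads on microRNAs (RPM), which rise in steps that correspond to estimated totals of 10812821 and 10820816 reads. The lowest value above 0 in experiment 2 is 0.92 RPM, about 10 reads, and each of the 4 microRNAs was above it. All levels below are in RPM, a share of reads that was not divided by length since mature microRNAs are of nearly the same length. Levels of different microRNAs are compared as reads and not as molecules, and the 95% intervals cover counting error only, since copies made by PCR could not be told apart.

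The libraries of experiment 1 stood apart from the liver label in the defining marker of hepatocytes. miR-122-5p was only the microRNA of rank 25 and 27 in their pair-fed and ethanol-fed library, whereas it ranked 2 in both libraries of experiment 2. The summed level of the 4 microRNAs was 3222 and 2450 RPM in experiment 1, against 183371 and 157161 RPM in experiment 2. This order rested on miR-122-5p, which made up 92.2% and 90.2% of the sum in experiment 1 and 99.8% and 99.7% in experiment 2. miR-122-3p was higher in experiment 2 too. miR-802-5p was instead at 121 and 135 RPM against 111 and 182 RPM, and miR-802-3p was higher in experiment 1 (91.8 and 79.8 RPM against 21.7 and 37.6 RPM). The marker sums of other cell types differed between the tables as well, but not all markers of a type differed in the same direction. All 4 mesenchyme markers were above 0 in every library and summed to 96518 and 96073 RPM in experiment 1 and 18978 and 24067 RPM in experiment 2. This order rested on mmu-miR-143-3p (96276 and 95735 RPM against 15722 and 20681 RPM), whereas miR-145a-5p, miR-199a-3p and miR-214-3p were each higher in both libraries of experiment 2. All 4 red cell markers were above 0 too and summed to 11559 and 33915 RPM in experiment 1 and 1826 and 1152 RPM in experiment 2. That order rested on mmu-miR-486a-5p (11512 and 33721 RPM against 818 and 540 RPM), since mmu-miR-451a, the defining marker, was at 25.7 and 133 RPM in experiment 1 and at 873 and 514 RPM in experiment 2. The arms of miR-126a, a marker of endothelium, summed to 3854 and 5142 RPM in experiment 1 and 22335 and 26332 RPM in experiment 2, with the 3p arm higher and the 5p arm lower in experiment 2. White cell markers (4 of 4 above 0) summed to 404 and 335 RPM in experiment 1 and to 872 and 463 RPM in experiment 2, and markers of intestinal epithelium (at least 6 of 7 above 0) lay between 324 and 1116 RPM over the 4 libraries. Pancreas markers ranged from 5.92 to 113 RPM. In experiment 1, 1 and 2 of 4 were above 0, and in experiment 2, 2 and 4 of 4 (pair-fed first). Of these, miR-217-5p and miR-216a-5p did not appear in experiment 1. Muscle markers ranged from 0.480 to 115 RPM, with miR-206-3p and miR-208a-3p listed at 0 in experiment 2. In experiment 1 only miR-133a-3p appeared, without miR-1a-3p, which made up most of the muscle sum in experiment 2 (69.9 and 111 RPM). Of the brain markers, miR-124-3p was listed at 0 in experiment 2 and did not appear in experiment 1, while miR-9-5p was the single source of sums between 1.44 and 6.65 RPM. The part of other cell types in the results below was not tested.

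The guide arm of miR-122 was the highest of the 4 in each library. In experiment 1, mmu-miR-122-5p reached 2971 RPM (12392 reads) with pair feeding and 2210 RPM (9529 reads) with ethanol feeding. In experiment 2 it reached 182938 RPM with pair feeding and 156660 RPM with ethanol feeding, which is 18.3% (95% Wilson interval 18.3% to 18.3%) and 15.7% (15.6% to 15.7%) of the reads on microRNAs. In experiment 1 it made up 0.297% (0.292% to 0.302%) and 0.221% (0.217% to 0.225%). The 2 libraries of experiment 1 were thus both far below the 2 of experiment 2, and within each table the pair-fed library was the higher.

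The other arm of this hairpin was rare. mmu-miR-122-3p reached 37.9 RPM (158 reads) with pair feeding and 25.3 RPM (109 reads) with ethanol feeding in experiment 1, and 299.6 RPM and 281 RPM in experiment 2. Again the libraries of experiment 2 were the higher, but by less than in the guide arm.

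miR-802 was far less abundant than the guide arm of miR-122 and varied less between the tables. mmu-miR-802-5p reached 121 RPM (506 reads) with pair feeding and 135 RPM (581 reads) with ethanol feeding in experiment 1, and 111 RPM and 182 RPM in experiment 2. The ethanol-fed library of experiment 2 was the highest, and the other 3 libraries lay between 111 and 135 RPM. mmu-miR-802-3p reached 91.8 RPM (383 reads) with pair feeding and 79.8 RPM (344 reads) with ethanol feeding in experiment 1, and 21.7 RPM and 37.6 RPM in experiment 2. This arm was the only 1 of the 4 that was lower in both libraries of experiment 2.

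**Figure D1:**
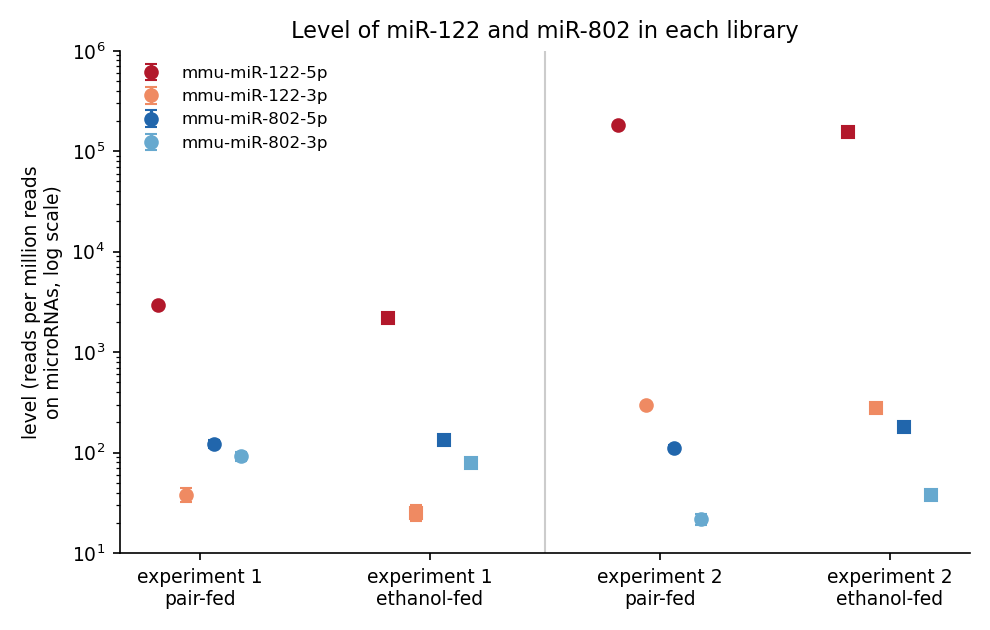
Level of each arm of miR-122 and miR-802 in the 4 libraries, in RPM on a log scale, with circles for pair-fed and squares for ethanol-fed libraries and bars for the 95% Wilson interval of counting error (often smaller than the symbol). miR-122-5p is the highest in every library and is at 2971 RPM in the pair-fed library of experiment 1 and at 182938 RPM in that of experiment 2, while miR-802-5p is at 121 and 111 RPM in the same libraries.

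The order of the 4 levels therefore depended on the table. In both libraries of experiment 1 it was miR-122-5p, miR-802-5p, miR-802-3p and miR-122-3p, and in both libraries of experiment 2 it was miR-122-5p, miR-122-3p, miR-802-5p and miR-802-3p. Neighbors in these orders had counting intervals that did not overlap in any library, the closest being the arms of miR-802 in the pair-fed library of experiment 1, which differed 1.32-fold. There were 24.5 reads of miR-122-5p for each read of miR-802-5p with pair feeding and 16.4 with ethanol in experiment 1, against 1642 and 860 in experiment 2. In both tables this number was lower in the ethanol-fed library.

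The 2 tables were normalized separately, and a level set across them describes these libraries and is not a test. Between the pair-fed libraries, miR-122-5p was 61.6-fold higher in experiment 2 (95% interval 60.5 to 62.7), and miR-122-3p was 7.86-fold higher (6.74 to 9.34). miR-802-5p had a ratio of 0.917 (0.827 to 1.02), and miR-802-3p was 4.22-fold lower. Of these, 3 of the 4 differed at least 2-fold, but so did 75.7% of the 370 microRNAs that had 10 or more reads over the 2 pair-fed libraries. The median log2 difference of these 370 was 1.67, and relative to it miR-122-5p was higher by 4.28, miR-122-3p higher by 1.31, miR-802-5p lower (-1.79) and miR-802-3p lower (-3.75) on the log2 scale. Among the 370, only 15 had a larger value than miR-122-5p. Among the 61 microRNAs with at least 1000 RPM in either pair-fed library, 5 did, namely miR-378d, miR-101c, miR-152-3p, miR-30c-5p and miR-126a-3p, which were picked out after their values were seen, miR-378d being listed at 0 in the pair-fed library of experiment 1. In libraries of whole liver, fewer cells of a type and less RNA per cell cannot be told apart. Whether the libraries of the 2 tables were prepared in the same way is not given in the sources used here. The reads were not processed alike. Experiment 1 lists 484 names down to 1 read, and experiment 2 lists 1915 names with 0.92 RPM as the lowest value above 0. Levels of miR-486a-5p and miR-486b-5p were equal in each library of experiment 2 but differed in both libraries of experiment 1. With pair feeding, miR-101c was at 8417 RPM beside 8281 RPM for miR-101a-3p in experiment 2. In experiment 1 they were at 2.64 and 2080 RPM. The part of preparation and processing in these differences was not tested. Between the ethanol-fed libraries the guide arm of miR-122 was 70.9-fold higher in experiment 2.

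**Figure D2:**
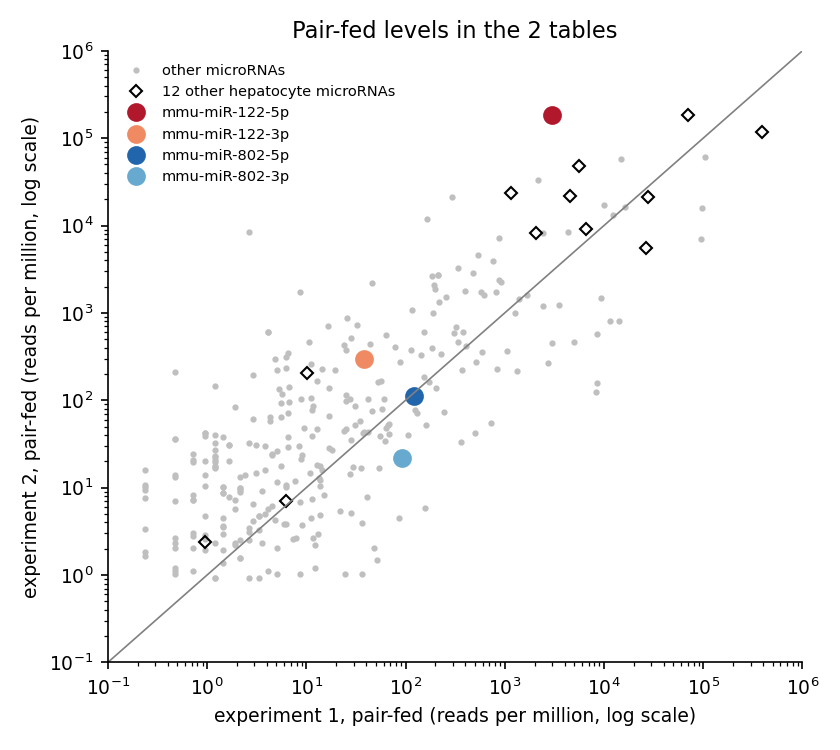
Pair-fed levels in experiment 1 (horizontal) and experiment 2 (vertical), both in RPM on log scales, for the 316 microRNAs above 0 in both, with the line of equal levels. miR-122-5p lies far above the line at 2971 and 182938 RPM, miR-802-5p lies close to it, and miR-802-3p lies below it, while the 12 other hepatocyte microRNAs are found on both sides.

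Other microRNAs that are abundant in hepatocytes, a list of 12 written from general knowledge, differed between the tables in both directions. Relative to experiment 1, 7 of the 12 were at least 2-fold higher in the pair-fed library of experiment 2 and 2 were lower, with a median log2 difference of 1.23 beside 1.67 for all 370. miR-194-5p had the largest difference of the 12, with 1149 RPM in experiment 1 and 23768 RPM in experiment 2, a log2 difference of 4.37. miR-192-5p, which is transcribed together with a copy of miR-194, was lower instead, with 388161 RPM in experiment 1 and 117318 RPM in experiment 2. miR-148a-3p, the most abundant microRNA of experiment 2, was at 70319 and 185558 RPM.

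The question put to each table was whether ethanol feeding went with different levels of liver small RNAs. Ethanol-fed over pair-fed, none of the 4 arms reached a 2-fold difference in experiment 1 or in experiment 2. The share of all tested microRNAs that did was 25.5% of 302 in experiment 1 and 25.8% of 469 in experiment 2. Tested means that both libraries of the table had at least 10 reads between them. This background, also used for the ranks below, thus includes microRNAs with few reads, whereas each arm had over 100 reads in every library. The share was lower in both tables under a minimum of 100 reads. In experiment 2 it was also lower with values of 0 set to the lowest listed value. Fold changes were computed on the log2 scale after adding 1 read to each count. miR-122 was lower in the ethanol-fed library in both tables, whereas miR-802 was higher in experiment 2 and divided in experiment 1. No test was possible within a table, which has 1 library per condition. With the 2 tables taken as pairs, an exact two-sided permutation of the signs of the ratios gave p = 0.5 for miR-122-5p, miR-122-3p and miR-802-5p, the smallest that 2 pairs can give, and p = 1.0 for miR-802-3p, so that this design could not pass a threshold of 0.05.

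The guide arm miR-122-5p had a log2 ratio of -0.43 in experiment 1 (95% interval -0.47 to -0.39) and of -0.22 in experiment 2 (-0.23 to -0.22). This corresponds to a level in the ethanol-fed library that differed by -25.6% in the first table and by -14.4% in the second. In experiment 1, 56.6% of the tested microRNAs lay at least as far from 0, and in experiment 2 it was 67.4%. miR-122-3p had a log2 ratio of -0.58 (-0.95 to -0.22) in experiment 1 and of -0.090 (-0.16 to -0.018) in experiment 2. Both arms were thus lower with ethanol in both tables beyond the counting error, and for miR-122-3p the share of tested microRNAs at least as far from 0 was 45.0% in experiment 1 and 87.2% in experiment 2. The counting interval of the difference between the tables, experiment 1 minus experiment 2, was -0.24 to -0.16 for miR-122-5p and -0.85 to -0.13 for miR-122-3p.

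miR-802-5p had a log2 ratio of 0.15 in experiment 1, with an interval that includes 0 (-0.023 to 0.33), and of 0.71 in experiment 2 (0.60 to 0.81), a level 1.63-fold that of the pair-fed library. miR-802-3p had a log2 ratio of -0.20 (-0.42 to 0.011) in experiment 1 and of 0.79 (0.56 to 1.03) in experiment 2, or 1.73-fold. The 2 arms of miR-802 were therefore alike in experiment 2, and 84.9% and 85.7% of the tested microRNAs had a lower ratio than the 5p and the 3p arm. In experiment 1 neither arm could be told apart from no change at this depth. The upper bounds there, 0.33 and 0.011, were below the lower bounds of experiment 2, and the difference between the tables was -0.56 (-0.76 to -0.36) for the 5p and -0.99 (-1.30 to -0.68) for the 3p arm.

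miR-802 and miR-122 were set against each other within the same libraries, where the scaling to the total cancels out. The log2 ratio of miR-802-5p exceeded that of miR-122-5p by 0.58 (0.40 to 0.75) in experiment 1 and by 0.93 (0.83 to 1.03) in experiment 2. For the 3p arms the difference was 0.38 (-0.033 to 0.79) and 0.88 (0.64 to 1.12). In the 5p arms of both tables, miR-802 was thus higher relative to miR-122 in the ethanol-fed library, by more than counting error. In experiment 2, where the ratio of miR-802 was the larger, the summed pancreas markers were at 5.92 RPM with pair feeding and 113 RPM with ethanol and those of intestinal epithelium at 737 and 1116 RPM. White cell markers were instead lower with ethanol in experiment 2 (872 and 463 RPM), as were red cell markers (1826 and 1152 RPM). The sums of muscle (71.95 and 115 RPM), mesenchyme (18978 and 24067 RPM) and endothelium markers (22335 and 26332 RPM) were higher. The higher mesenchyme sum rested mainly on miR-143-3p. Of the other mesenchyme markers, miR-199a-3p was only slightly higher, and miR-145a-5p and miR-214-3p were slightly lower with ethanol. In experiment 1 the red cell sum was instead higher with ethanol (11559 and 33915 RPM) and the pancreas sum lower (85.1 and 48.5 RPM). Of the 4 pancreas markers only miR-375-3p and miR-216b-5p were listed there, and both were higher with ethanol in experiment 2. In experiment 1 the pancreas sum rested on miR-375-3p, whereas miR-216b-5p was read only with ethanol, at few reads. White cell markers were lower there too (404 and 335 RPM), and endothelium markers higher (3854 and 5142 RPM). Mesenchyme markers were at 96518 and 96073 RPM and those of intestinal epithelium at 324 and 331 RPM. This mesenchyme sum rested on miR-143-3p. The other mesenchyme markers, miR-145a-5p, miR-199a-3p and miR-214-3p, were each higher with ethanol in experiment 1, the last with few reads. The part of these cell types in the result was not tested in either experiment.

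**Figure D3:**
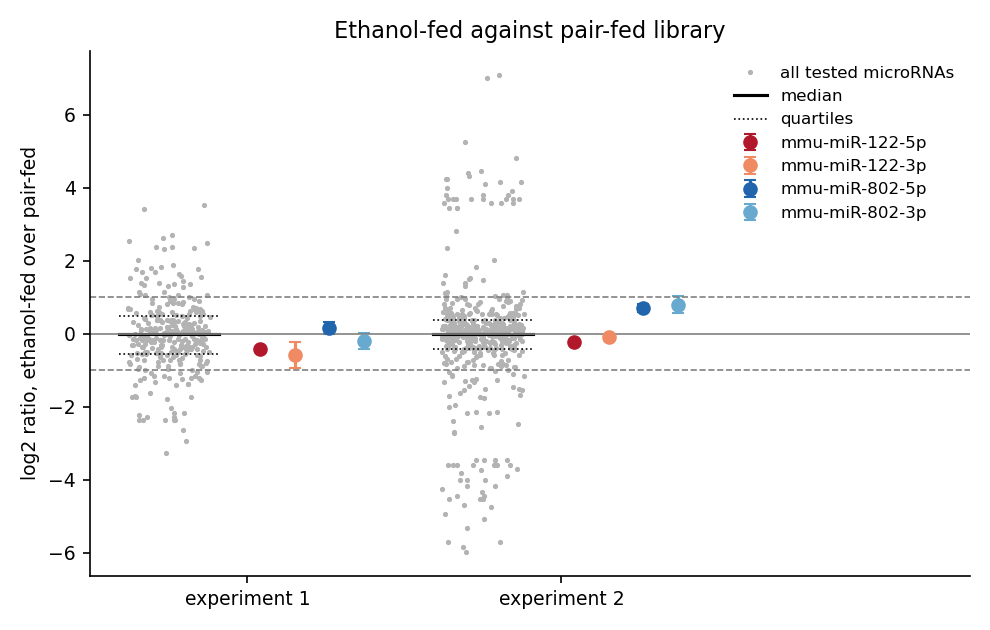
Log2 ratio of the ethanol-fed to the pair-fed level in experiments 1 and 2, with a gray dot for each of the 302 and 469 tested microRNAs, lines for their median and quartiles, dashed lines at a 2-fold change, and colored circles with 95% counting intervals for the arms of miR-122 and miR-802. All 4 circles lie within the dashed lines in both tables, miR-122 below 0 in both and miR-802 at 0.71 and 0.79 in experiment 2.

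Taking the list of 12 other hepatocyte microRNAs as background, 9 were higher and 3 lower in the ethanol-fed library of experiment 1, and again 9 and 3 in experiment 2. Their median log2 ratio was 0.091 in experiment 1 and 0.11 in experiment 2, beside -0.31 and 0.31 for the arms of miR-122 and miR-802 and -0.013 and 0.0026 for all tested microRNAs. The arms of miR-122 and miR-802 went in different directions, so that their medians describe no single arm. In experiment 1, 1 was higher and 3 were lower, and in experiment 2, 2 were higher and 2 lower (-0.22 to 0.79). At least 2-fold higher were 2 of the 12 in experiment 1, both with few reads, and 0 in experiment 2. These were miR-193a-3p, from 6.23 to 12.8 RPM, and miR-193b-3p, from 0.959 to 4.64 RPM. miR-101b-3p was the only 1 of the 12 besides miR-192-5p that was lower in both tables, with log2 ratios of -0.38 and -0.14, and for miR-192-5p they were -0.057 and -0.097. The most abundant of the list in experiment 2, miR-148a-3p, had ratios of 0.13 and 0.018.

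The balance of the 2 arms can be read within a library, with no scaling. miR-122 was almost all 5p arm, with 78.4 reads of the 5p for each read of the 3p arm (95% interval 67.04 to 92.3) with pair feeding and 87.4 (72.4 to 107) with ethanol in experiment 1. In experiment 2 these ratios were 611 (590 to 632) and 557 (537 to 577). The 5p arm of miR-802 was in excess as well, but much less so, with 1.32 reads (1.15 to 1.51) and 1.69 reads (1.48 to 1.94) for each read of the 3p arm in experiment 1, and 5.13 (4.46 to 5.92) and 4.84 (4.35 to 5.40) in experiment 2. The 3p arm of miR-802 thus made up 43.1% and 37.2% of the reads of its hairpin in experiment 1 and 16.3% and 17.1% in experiment 2. The 5p arm led in every library for both hairpins, and the excess of the 5p arm was greater in experiment 2.

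Between the pair-fed libraries the log2 ratio of the arms differed by 2.97 for miR-122 and by 1.95 for miR-802. Differences of that size were common. Over the 38 microRNA genes with at least 10 reads of each arm in all 4 libraries, the median absolute difference was 2.46, and 15 and 22 of them were at least as far apart as miR-122 and miR-802. The shift was toward the 5p arm in experiment 2 in 20 of the 38, and 31 of the 38 had the same dominant arm in both tables.

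The balance was also compared between the conditions. The log2 ratio of the ethanol-fed to the pair-fed level was higher in the 5p than in the 3p arm of miR-802 by 0.35 (0.082 to 0.62) in experiment 1, while the difference was -0.081 (-0.33 to 0.17) in experiment 2. For miR-122 it was 0.15 (-0.20 to 0.51) in experiment 1 and -0.13 (-0.21 to -0.062) in experiment 2. The median absolute difference over the 38 genes was 0.45 in experiment 1 and 0.22 in experiment 2, which is more than in either hairpin in the same table.

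**Figure D4:**
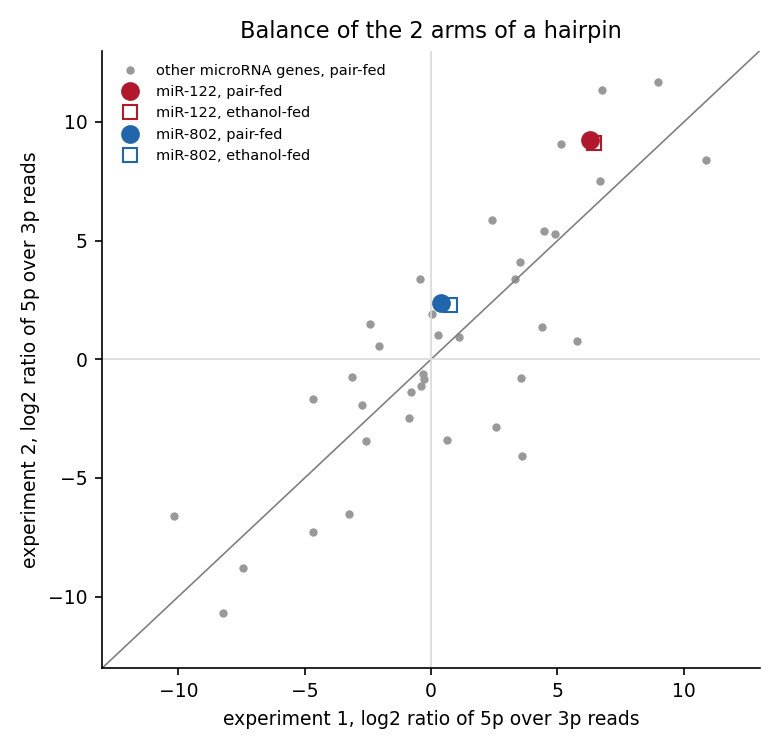
Log2 ratio of 5p over 3p reads in experiment 1 (horizontal) and experiment 2 (vertical), with gray dots for the pair-fed values of 36 other microRNA genes, filled circles for the pair-fed and open squares for the ethanol-fed values of miR-122 and miR-802, and the line of equal ratios. Both hairpins lie above the line in the quadrant where the 5p arm leads in both tables, with pair-fed values of 6.28 and 9.25 for miR-122 and of 0.40 and 2.35 for miR-802.

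Likeness of pattern was measured over the 4 libraries as the Euclidean distance between log2 levels centered on their own mean, a description in which the gap between the tables weighs most. Among 209 microRNAs with at least 10 reads in every library, the nearest to miR-122-5p were miR-361-3p at a distance of 0.40, miR-148b-3p at 0.41 and miR-30c-5p at 0.43, whereas the median distance was 5.49. miR-361-3p was at 6.23 and 4.64 RPM in experiment 1 and at 310 and 238 RPM in experiment 2, so that it was lower in the ethanol-fed library of both tables like miR-122-5p. miR-30c-5p had instead a log2 ratio of 0.14 in experiment 2. The nearest to miR-122-3p were miR-99a-5p (0.24), miR-27a-3p (0.38) and miR-221-3p (0.41).

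The 2 arms of a hairpin were not each other's nearest neighbors. Among the 209, miR-122-3p took place 39 by its distance of 2.82 to miR-122-5p, and miR-802-3p took place 94 by its distance of 1.76 to miR-802-5p. The distance between miR-122-5p and miR-802-5p was 5.94, larger than the median distance from miR-122-5p. The nearest to miR-802-5p were miR-874-3p (0.26), miR-744-5p (0.31) and miR-365-2-5p (0.33), and those to miR-802-3p were miR-141-3p (0.16), let-7e-5p (0.28) and miR-7015-3p (0.29). miR-141-3p, a member of the epithelial miR-200 family, was at 22.1 and 21.8 RPM in experiment 1 and at 5.46 and 10.3 RPM in experiment 2, the same order of libraries as in miR-802-3p.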

How the data were processed

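Small RNA of 18 to 40 nt from liver total RNA was amplified by RT-PCR and sequenced on an Illumina instrument. The authors deposited unnormalized read counts for experiment 1 (columns Con and ALD) and RPM for experiment 2 (pair-72 and Ef-73), and columns were assigned to pair-fed or ethanol-fed by name. The processing notes of the submitters name the build mm8, and aligner, microRNA annotation and filters are not given in the sources used here. The columns with the authors' log2 fold change and p-value were not used. In experiment 2 the total reads were estimated as the number that made 96.1% of the values above 0 whole within the rounding to 2 decimals, in each library. Ratios are log2 after a pseudocount of 1 read, with an exact binomial 95% interval of the ratio, and shares have Wilson intervals. Intervals for differences of ratios use a normal approximation to the 4 counts. A microRNA counted as tested with 10 reads over both libraries. The members, the lists and the rules for named microRNAs (the members, the 3 nearest profiles, 12 hepatocyte microRNAs) were chosen with earlier results of these data known. The arms of miR-3591, also planned, carry no row in either table. Ratios, intervals and the estimated totals were tested on simulated data. Computation ran in Python 3.11.15 with scipy 1.17.1, numpy 2.4.6 and pandas 2.3.3, and plots were drawn in matplotlib 3.10.9.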

Additional observations from a re-analysis of the deposited data

Results flagged for a closer look

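miR-802-3p had opposite directions in the 2 tables, with a log2 ratio of the ethanol-fed to the pair-fed level of -0.20 in experiment 1 (383 and 344 reads) and of 0.79 in experiment 2 (estimated at 235 and 407 reads). Each table has 1 library per condition, so the difference between the tables was not tested over samples, and the counting interval in experiment 1 (-0.42 to 0.011) includes 0.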

How the results depend on the processing

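None of the 38 alternative values of the ethanol ratios of the 4 arms reached 2-fold, and all kept their direction. The ratio of miR-122-5p moved beyond its counting error to -0.38 with unscaled reads in experiment 1. In experiment 2 it moved slightly from -0.224 (interval -0.227 to -0.221), to -0.236 with size factors from the median of ratios. It moved to -0.220 with miR-148a-3p left out of the totals. Differences between the pair-fed libraries depended more on scaling. In the order miR-122-5p, miR-122-3p, miR-802-5p and miR-802-3p, the log2 differences were 4.51, 1.54, -1.56 and -3.51 with median-of-ratios size factors, and 5.53, 2.56, -0.54 and -2.49 without the most abundant microRNA of each library. Between the ethanol-fed libraries they were 6.15, 3.46, 0.43 and -1.09. Without miR-122-5p in the totals, an alternative chosen after seeing the data, they were 3.26, 0.16 and -1.79 for the last 3, so that the direction of miR-802-5p depended on the setting. The ratios of 5p over 3p arms stayed within counting error with a pseudocount of 0.1 read and with zeros at the lowest listed value. Counts of all microRNAs at least 2-fold higher and lower were 38 and 39 in experiment 1 and 50 and 71 in experiment 2. With no minimum they were 99 and 102 in experiment 1. Under a minimum of 100 reads they were 10 and 9 in experiment 1 and 12 and 24 in experiment 2. Fewer microRNAs were tested under this minimum, but the share at least 2-fold higher or lower fell as well. With zeros of experiment 2 at the lowest listed value, 23 were higher and 49 lower. With the 2 tables taken as pairs, an analysis also chosen after seeing the data, the mean log2 ratios were -0.33, -0.33, 0.43 and 0.29 in the same order of arms, and an exact permutation of the signs cannot give a two-sided p below 0.5. At any depth a difference between libraries cannot be told apart from one between animals.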
